A study of Mus musculus with 2 samples.

Results

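The 10 genes described here encode transcription factors that govern the formation of fat cells: Pparg, Cebpa, Cebpb, Cebpd, Klf4, Klf15, Ebf1, Ebf2, Zfp423 and Gata2. They were taken by symbol from the 31054 genes of both libraries, and all 10 were found. The cells came from the gonadal white adipose tissue of 18-month-old male mice carrying p16-CreERT2 and R26-LSL-tdTomato, in which tamoxifen lets a Cre recombinase driven by the p16 gene switch on the red reporter tdTomato for good. Cells without the endothelial marker CD31 and the leukocyte marker CD45 were sorted into tdTomato-positive (Tom+, p16-expressing at the time of labelling) and tdTomato-negative (Tom-) cells, and each sort gave 1 single-cell RNA library. All cells of both groups therefore share the genotype, sex, age, tissue and tamoxifen treatment, and are set apart by the reporter. The number of mice behind each library was not given in the sources used here. With 1 library per sort there was no replicate check and no test was possible, so the values below compare 2 libraries, and every interval is a 95% interval for counting error only.

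Fat cell formation runs as a cascade. In the textbook model, the early factors C/EBPβ, C/EBPδ and Klf4 come on within hours of an adipogenic stimulus and switch on Pparg and Cebpa, which then keep each other on and drive the genes of the mature fat cell. Ebf1, Ebf2 and Zfp423 mark or commit precursor cells, Klf15 acts late and on metabolic genes, and Gata2 holds precursors back.

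After cells with 1001 to 6999 detected genes and under 8% mitochondrial unique molecular identifiers (UMIs) were kept, 3524 Tom+ and 6717 Tom- cells remained. Cells with at least 10 UMIs of the mesothelial markers Msln, Upk3b, Krt19, Lrrn4 and Upk1b together were called mesothelial (250 Tom+ and 1887 Tom- cells), and cells with under 5 were called stromal (3263 Tom+ and 4800 Tom- cells). Among stromal cells, 97.2% of Tom+ and 98.8% of Tom- cells carried at least 10 UMIs of the fibroblast genes Pdgfra, Dcn, Col1a1, Col3a1 and Lum. All mesothelial cells also carried that many fibroblast UMIs, so this limit does not separate the classes. The level did differ, since fibroblast genes together were at 13130 to 14777 CPM (UMIs per 1000000) in mesothelial cells against 28223 to 29484 CPM in stromal cells. Stromal cells had a median of 14235 (Tom+) and 11270 (Tom-) UMIs, and mesothelial cells 18601.5 and 14753.

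Some stromal cells were other cells despite the sort. Immunoglobulin genes took 6.20% of the Tom+ and 1.63% of the Tom- UMIs in stromal cells with at least 7563 UMIs, the 9 immune markers summed to 1812 against 906 CPM, and the 4 mast cell markers to 193 against 85.2 CPM. The main stromal comparisons of libraries and of tdTomato levels are therefore also given for the 3058 Tom+ and 4655 Tom- stromal cells with at least 10 fibroblast UMIs and under 10 UMIs each of the immune list, of Calca with Ncam1 and of the mast cell list, called immune-depleted here and chosen after the data were seen. In the 2817 Tom+ and 4057 Tom- immune-depleted cells with at least 7563 UMIs, immunoglobulin RNA was at 0.0715% and 0.0261% of the UMIs. The libraries shared 2224 cell barcodes, of which 9 passed the filters in both, and the barcode of 404 Tom+ stromal, 75 Tom- stromal, 100 Tom+ mesothelial and 207 Tom- mesothelial cells also occurred in the other library.

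The 10 factors fell into 2 kinds by how many stromal cells showed them. To compare shares at 1 depth, each cell was thinned to 7563 UMIs, which left out 271 Tom+ and 647 Tom- stromal cells. Cebpb, Klf4, Cebpd, Ebf1 and Ebf2 were then seen in 62.0% to 99.5% of stromal cells, and Cebpa, Pparg, Zfp423, Klf15 and Gata2 in 2.77% to 24.4%. Free RNA contributes to such shares, and its part was not tested. Barcodes with no more than 1000 genes can hold free RNA and broken cells. Of the 1892 such Tom+ barcodes, 1678 also occurred in the Tom- library, and of the 4969 Tom- ones, 1913 in the Tom+ library. What they hold was not tested, so their levels are not a measure of free RNA alone. Cebpb was at 864 (Tom+) and 1223 (Tom-) CPM there, Klf4 at 840 and 983, Ebf1 at 158 and 257, and Ebf2 at 44.3 and 52.7. All lay below the level in stromal cells of the same library but, for Ebf1 and Ebf2, above that in mesothelial cells. The same held for Pparg at 7.19 and 8.09, Cebpa at 9.58 and 14.6, Cebpd at 193 and 323, and Zfp423 at 3.59 and 7.05 CPM. For Cebpa, Cebpd and Zfp423 the intervals of those barcodes and of mesothelial cells overlapped in Tom+. Gata2 was at 10.8 (Tom+, 6.39 to 17.0) and 7.57 CPM (Tom-, 5.07 to 10.9) in those barcodes, above its level in cells. These intervals overlapped those of cells of the same library, except Tom+ stromal cells (4.93 to 6.24). Its level in cells was thus not above that of those barcodes, and no expression is read from its share.

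**Figure D1:**
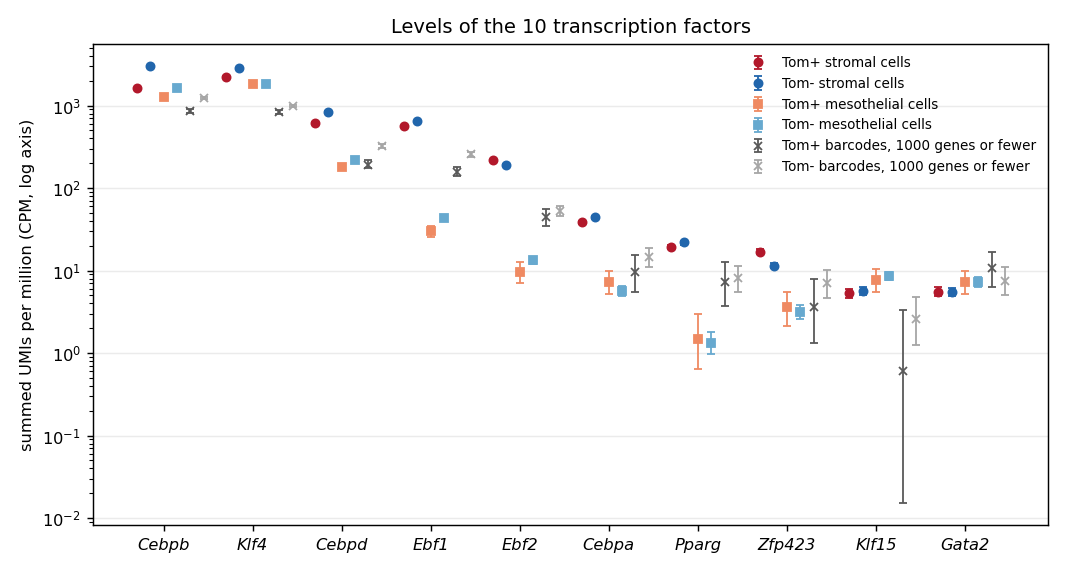
Level of each factor in CPM (log axis) in stromal cells, mesothelial cells and barcodes with no more than 1000 genes of the Tom+ and Tom- libraries. Points are summed counts of 1 library and bars 95% Poisson intervals. Pparg, Ebf1 and Ebf2 lie more than 10-fold apart between stromal and mesothelial cells, while Cebpb and Klf4 lie close together.

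Cebpb, which encodes C/EBPβ, an early bZIP factor that starts the cascade, stood apart between the sorts. Its stromal level was 1644 CPM (95% Poisson interval 1633 to 1655) for Tom+ against 3019 CPM (3005 to 3033) for Tom-. It was thus 1.84-fold lower in Tom+, with a log2 ratio (Tom+ over Tom-) of -0.88 (-0.89 to -0.86). It was the only factor at least 1.5-fold lower in Tom+, beside 3.24% of the 9777 genes that averaged 5 CPM or more, and no factor was at least 1.5-fold higher, beside 3.86% of genes. Its ratio sat at the 1.35 percentile of those genes. Among immune-depleted cells it was at 1759 and 3099 CPM, a log2 ratio of -0.82 (-0.83 to -0.81) at the 1.43 percentile. In those cells 2.68% of 9750 genes were at least 1.5-fold lower and 5.58% at least 1.5-fold higher. Nearly every stromal cell carried the message, 98.0% of thinned Tom+ cells (97.4 to 98.4) and 99.5% of thinned Tom- cells (99.3 to 99.7). With means of 13.3 and 23.4 thinned UMIs, these shares had little room to differ. The median was 9 thinned UMIs in Tom+ and 19 in Tom- cells. Whether most cells held less or fewer cells were rich in Cebpb was not tested. The spread among cells was wide in both libraries, from 2 UMIs at the 10th percentile to 30 at the 90th in Tom+ and from 4 to 49 in Tom-, so the ranges overlapped.

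The 250 bases before the Cebpb start (RefSeq, GRCm38.p6, chr2:167688665-167688914, plus strand) are shown because this gene carries the largest difference between the sorts, with the promoters of Klf4 (chr4:55532476-55532725, minus strand) and of Nr4a1 (chr15:101266596-101266845, plus strand) and Nr4a3 (chr4:48045055-48045304, plus strand), whose levels followed Cebpb from cell to cell as described further on. Each is written 5′ to 3′ on the gene's strand. Capitals mark TGACG, the core of the cAMP response element bound by CREB, on either strand.
Cebpb: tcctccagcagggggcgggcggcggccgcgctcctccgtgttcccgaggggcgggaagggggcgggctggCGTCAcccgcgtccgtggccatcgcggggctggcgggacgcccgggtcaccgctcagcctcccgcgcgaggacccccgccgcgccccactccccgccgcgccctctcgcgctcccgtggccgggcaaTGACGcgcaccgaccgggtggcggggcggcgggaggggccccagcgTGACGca
Klf4: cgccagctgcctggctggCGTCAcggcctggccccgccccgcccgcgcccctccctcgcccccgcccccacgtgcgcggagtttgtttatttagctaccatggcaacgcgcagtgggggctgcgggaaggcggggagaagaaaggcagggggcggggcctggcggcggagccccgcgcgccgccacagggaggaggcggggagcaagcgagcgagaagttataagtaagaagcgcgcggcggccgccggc
Nr4a1: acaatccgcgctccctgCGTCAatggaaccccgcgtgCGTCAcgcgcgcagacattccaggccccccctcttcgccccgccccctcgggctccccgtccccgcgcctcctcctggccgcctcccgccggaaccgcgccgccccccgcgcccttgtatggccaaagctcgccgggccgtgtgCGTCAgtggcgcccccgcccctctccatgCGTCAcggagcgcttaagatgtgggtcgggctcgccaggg
Nr4a3: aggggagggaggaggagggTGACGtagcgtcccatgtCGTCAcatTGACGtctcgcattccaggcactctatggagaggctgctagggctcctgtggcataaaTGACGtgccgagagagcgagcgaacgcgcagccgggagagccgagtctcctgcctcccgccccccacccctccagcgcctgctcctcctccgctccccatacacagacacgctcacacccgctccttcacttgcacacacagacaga

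The Cebpb window held TGACG at 3 places and the Klf4 window at 1, while Nr4a1 and Nr4a3 held it at 4 each. Of the windows searched but not shown, that of Klf15 held it at 2 places. The window of Fosl2, which also followed Cebpb from cell to cell, held it at 0 places. Those of Cebpa, Ebf1, Gata2, Pparg and Zfp423 did not hold it either. Of 32851 RefSeq promoters of this length, 17.8% held it at least 1 time and 0.688% at 3 or more places. TGACG was 1 of 12 motifs searched. The shares are over all promoters and were not matched for base composition, so they do not show how rare such counts are among windows of like composition. TGACG lies within the full palindrome TGACGTCA, which 1.55% of promoters held and the Cebpb window did not. A further 10 motifs were searched, and a match describes the letters of the window, not a site in use. Promoter entries were matched for 8 of the 10 factors, without Cebpd and Ebf2.

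The other early factors were lower in Tom+ by less. Cebpd, which encodes C/EBPδ, the partner of C/EBPβ early in differentiation, had 618 CPM in Tom+ stromal cells against 844 CPM in Tom- ones (log2 ratio -0.45, -0.47 to -0.43). It was seen in 84.6% of thinned Tom+ and 88.6% of thinned Tom- cells, and in immune-depleted cells its log2 ratio was -0.37 (-0.40 to -0.35). Klf4, a Krüppel-like factor that binds the Cebpb promoter early in adipogenesis, was at 2252 and 2857 CPM, a log2 ratio of -0.34 (-0.35 to -0.33), and at -0.26 (-0.27 to -0.25) in immune-depleted cells. Without barcodes found in both libraries, the stromal log2 ratios were -0.77 for Cebpb, -0.31 for Cebpd and -0.23 for Klf4. Counting error was small for all 3 early factors, and the spread between mice or between libraries of 1 sort could not be measured. The spread between thinned stromal cells was far above counting error, and the intervals leave it out. The variance over the mean was 12.4 (Tom+) and 13.9 (Tom-) for Cebpb, 6.21 and 7.70 for Cebpd, and 12.0 and 12.7 for Klf4.

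The 2 factors at the head of the fat cell programme were close between the sorts. Pparg encodes PPARγ, the nuclear receptor required for fat cell formation, and its stromal level was 19.3 CPM (18.1 to 20.5) for Tom+ against 21.9 CPM (20.7 to 23.1) for Tom-. Its log2 ratio was -0.18 (-0.30 to -0.06), and -0.13 (-0.26 to -0.01) in immune-depleted cells. Cebpa, which encodes C/EBPα, the factor that sustains Pparg, had 38.5 CPM (36.8 to 40.2) against 44.2 CPM (42.5 to 45.9), which gave -0.20 (-0.28 to -0.11), and -0.15 (-0.24 to -0.06) in immune-depleted cells. Both were seen in a minority of cells. Thinned cells with Pparg made up 12.1% of Tom+ and 14.1% of Tom- stromal cells, against 1.21% and 0.895% of mesothelial cells, and without thinning 21.8% and 18.8% of stromal cells. Cebpa was seen in 21.7% and 24.4% of thinned stromal cells, against 5.26% and 4.14% of mesothelial cells, and without thinning in 33.1% and 31.5%. For both genes the order of the sorts turned with thinning.

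Pparg has several starts. The window before a downstream one, chosen after the motif search because it holds letters that C/EBP factors can bind, lies at chr6:115421816-115422065 (GRCm38.p6, plus strand, RefSeq). Capitals mark TTGCNNAA on either strand.
Pparg: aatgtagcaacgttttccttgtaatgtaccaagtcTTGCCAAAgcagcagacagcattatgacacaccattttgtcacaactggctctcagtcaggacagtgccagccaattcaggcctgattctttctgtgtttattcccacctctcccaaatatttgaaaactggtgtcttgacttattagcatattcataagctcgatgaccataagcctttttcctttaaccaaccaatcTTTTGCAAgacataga

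That window held TTGCNNAA at 2 places, while 9.56% of promoters of this length held it at least 1 time and 0.572% at 2 or more. These shares were not matched for base composition either. The other Pparg windows of the 3 in RefSeq did not hold these letters.

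Among the factors of committed precursors, Ebf1 was lower and Ebf2 and Zfp423 higher in Tom+. Ebf1, an early B-cell factor that lies upstream of Pparg and Cebpa, had 561 CPM (555 to 568) against 642 CPM (635 to 648), which gave -0.19 (-0.22 to -0.17), and -0.11 (-0.13 to -0.09) in immune-depleted cells. Ebf2, its relative that marks brown and beige precursors, was at 218 and 191 CPM, a log2 ratio of 0.19 (0.15 to 0.23), and was seen in 67.4% of thinned Tom+ (65.7 to 69.1) and 62.0% of thinned Tom- cells (60.5 to 63.4). Zfp423, a zinc finger factor of white precursor commitment, had 16.9 CPM (15.8 to 18.1) in Tom+ stroma against 11.5 CPM (10.7 to 12.4). Its log2 ratio of 0.55 (0.40 to 0.70) sat at the 95.4 percentile of the genes tested. It was seen in 12.4% of thinned Tom+ cells (11.3 to 13.7) and 7.78% of thinned Tom- cells (6.98 to 8.63), and in 21.6% and 12.1% of cells without thinning. In immune-depleted cells Zfp423 reached 18.5 against 11.9 CPM, 1.56-fold higher in Tom+ (log2 ratio 0.64, 0.49 to 0.79), which passed the 1.5-fold limit that it missed over all stromal cells. Ebf2 was at 240 and 198 CPM there, a log2 ratio of 0.27 (0.23 to 0.31).

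Klf15 and Gata2 were low and did not differ beyond counting error. Klf15, a glucocorticoid-responsive factor of late adipogenesis, was at 5.32 and 5.67 CPM (log2 ratio -0.09, -0.33 to 0.15), from 272 and 328 UMIs. Gata2, a GATA factor that restrains the step from preadipocyte to fat cell, was at 5.56 and 5.53 CPM (0.01, -0.23 to 0.24), from 284 and 320 UMIs. In immune-depleted cells Klf15 was at 0.01 (-0.23 to 0.25) and Gata2 at -0.06 (-0.33 to 0.20). The direction of each could not be read at this depth.

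Over all 10 factors, 7 ratios lay below 0 and 3 above, with a median log2 ratio of -0.19, beside a median of 0.07 over the 9777 genes, 60.5% of which lay above 0. In immune-depleted cells the medians were -0.12 for the factors and 0.14 for all genes. With size factors that centre all genes at 0, the median of the factors was -0.26 and Cebpb was at -0.95.

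**Figure D2:**
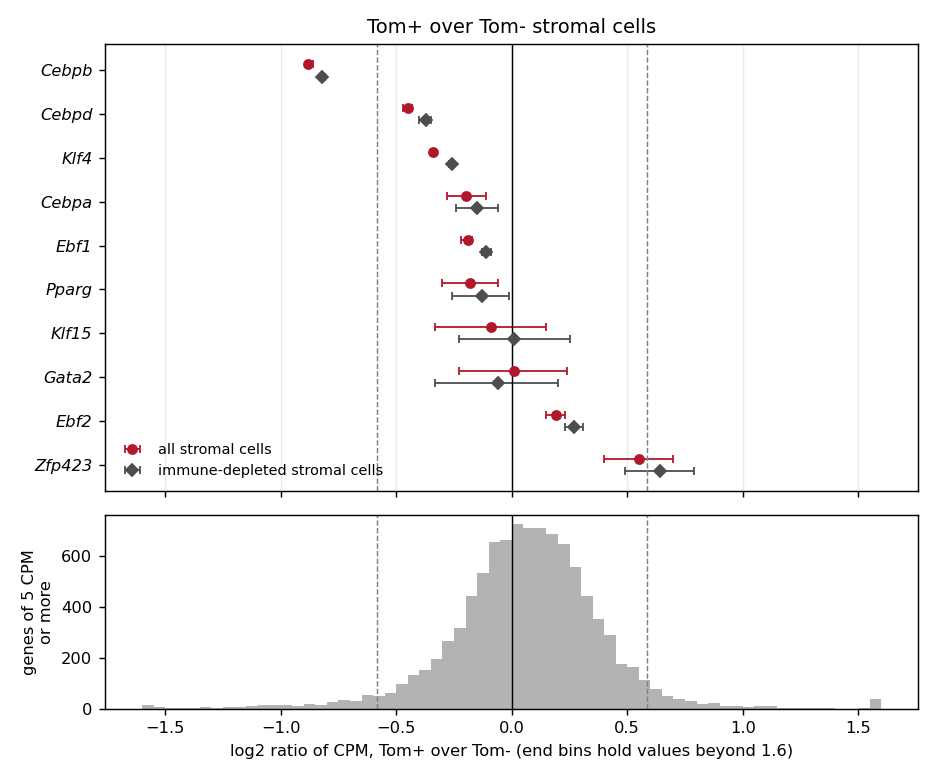
Log2 ratio of Tom+ to Tom- for each factor over all stromal (circles) and immune-depleted stromal cells (diamonds) with 95% intervals for counting error, above a histogram of the same ratio over all stromal cells for the 9777 genes. Dashed lines mark 1.5-fold, and of the factors Cebpb lies furthest to the left at -0.88 and Zfp423 furthest to the right at 0.55.

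In mesothelial cells, the flat cells that line the fat pad, 8 of the 10 factors reached 5 CPM and none of the 10 differed 1.5-fold between the sorts, where 1.16% of 10009 genes were lower in Tom+ by that much and 1.87% higher. Cebpb had 1281 CPM in Tom+ against 1648 CPM in Tom-, a log2 ratio of -0.36 (-0.40 to -0.33) that was smaller than in stromal cells, and Cebpd at 179 and 221 CPM (-0.30, -0.40 to -0.20). Klf4 was at 1839 and 1811 CPM (0.02, -0.01 to 0.05). Ebf1 was at 30.1 and 43.3 CPM and Ebf2 at 9.58 and 13.3 CPM, log2 ratios of -0.53 (-0.77 to -0.29) and -0.47 (-0.92 to -0.05), and the Ebf2 values rested on 51 and 429 UMIs. Pparg rested on 8 Tom+ UMIs here, and its ratio of 0.18 spanned 0 (-1.12 to 1.28). The median was -0.08 for the factors and 0.03 for all genes.

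Other cells and shared barcodes touched this mesothelial comparison. The macrophage genes Lyz2 and C1qa were at 275 against 10.8 CPM and 128 against 5.28 CPM, the 9 immune markers summed to 438 CPM in Tom+ against 37.6 in Tom-, and the immune-depleted limits removed 6.40% of Tom+ but 0.477% of Tom- mesothelial cells. In the 234 Tom+ and 1878 Tom- cells that remained, Cebpb was at -0.32 (-0.36 to -0.28), Cebpd at -0.24 (-0.34 to -0.14), Ebf1 at -0.44 (-0.69 to -0.20) and Ebf2 at -0.49 (-0.96 to -0.05), and no factor passed 1.5-fold. The Ebf1 and Ebf2 values changed with the choice of cells. Without barcodes found in both libraries (150 and 1680 cells), Ebf1 was at -1.17 (-1.67 to -0.71) and Ebf2 at -1.70 (-3.03 to -0.64, from 7 Tom+ UMIs), which put 2 factors past 1.5-fold lower, beside 3.30% of 9944 genes. Without cells that held a UMI of the stromal gene Pdgfra (139 and 1132 cells), Ebf2 was at 2.32 and 2.83 CPM and its ratio spanned 0 (-0.28, -1.80 to 0.94), as did that of Ebf1 (-0.56, -1.23 to 0.05). In that setting 2 factors were past 1.5-fold higher in Tom+, beside 3.43% of 9940 genes. They were Pparg at 1.75 (-0.88 to 3.97, from 3 and 6 UMIs) and Cebpa at 0.66 (-0.23 to 1.46), and both intervals spanned 0. Pparg, at 1.16 and 0.346 CPM, averaged under 5 CPM and was not among the 9940 genes. That share is therefore no like background for it. These settings were chosen after the data were seen.

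Mesothelial and stromal cells of the same library differed far more than the sorts did, and each of the 2 libraries gave the same 6 factors as at least 2-fold lower in mesothelial cells. In Tom-, 9.23% of 10014 genes were lower by that much and 11.9% higher, and in Tom+ 10.1% of 10235 genes were lower and 13.1% higher. The mesothelial marker genes themselves were left out of these shares, and no factor was 2-fold higher. The median log2 ratio of the factors was -1.90 in Tom- and -2.01 in Tom+, beside 0.14 and 0.11 over all genes. Cells of 1 library are not replicates, so the second library is the only repeat.

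Ebf1, Ebf2 and Pparg were lowest relative to stroma. Ebf1 was at 43.3 CPM in Tom- mesothelial against 642 CPM in Tom- stromal cells, 14.8-fold lower, and 18.7-fold lower in Tom+. Ebf2 was 14.4-fold lower in Tom- and 22.7-fold lower in Tom+. Of the 250 Tom+ mesothelial cells, 100 had a barcode that the Tom- library also held, and without shared barcodes Tom+ Ebf1 was 34.6-fold, Ebf2 76.4-fold (from 7 UMIs) and Cebpa 7.94-fold lower. Pparg was at 1.33 CPM in Tom- mesothelial cells (0.962 to 1.79, 43 UMIs) and rested on 8 UMIs in Tom+ (0.649 to 2.96 CPM), 16.4-fold and 12.8-fold lower than in stroma. Cebpa was 7.76-fold and 5.25-fold lower, Zfp423 3.66-fold and 4.73-fold, and Cebpd 3.83-fold and 3.45-fold. As a share of thinned cells, Ebf1 was seen in 13.2% of Tom- mesothelial against 93.9% of Tom- stromal cells, and Ebf2 in 5.09% against 62.0%.

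The remaining 4 factors were within 2-fold of stromal levels. Cebpb was 1.83-fold lower in Tom- mesothelial cells and 1.28-fold lower in Tom+, and was seen in 99.9% and 100% of thinned mesothelial cells. Klf4 was 1.58-fold and 1.22-fold lower and was seen in 98.8% and 98.0%. Klf15 was higher in mesothelial cells, at 8.62 against 5.67 CPM in Tom- (log2 ratio 0.61, 0.37 to 0.84) and 7.70 against 5.32 in Tom+ (0.53, 0.02 to 1.01). Gata2 had log2 ratios of 0.40 in both (0.15 to 0.65 in Tom-, -0.12 to 0.89 in Tom+).

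**Figure D3:**
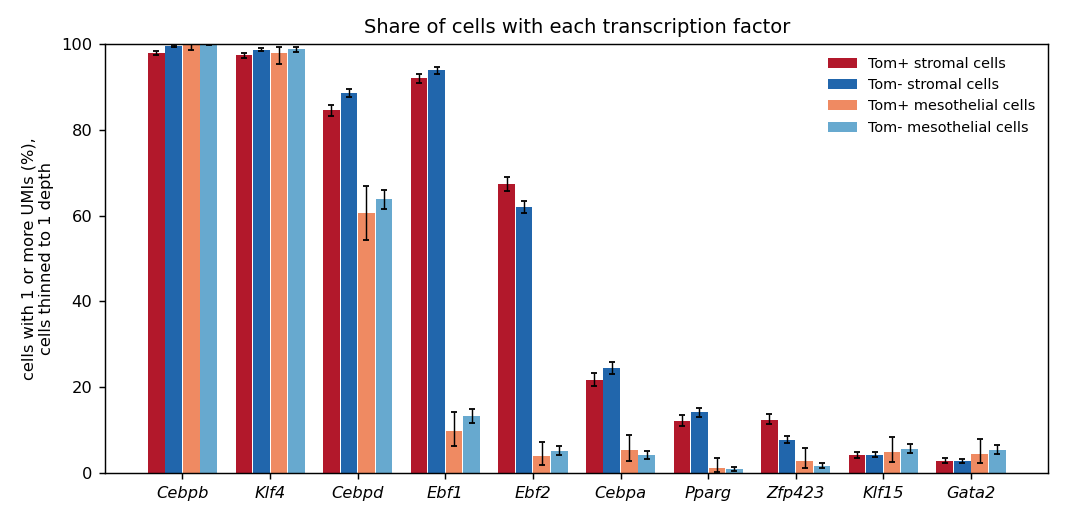
Share of cells with at least 1 UMI of each factor after thinning to 7563 UMIs, in stromal and mesothelial cells of each library, with exact binomial intervals. Ebf1 drops from 92.0% and 93.9% of stromal cells to 9.72% and 13.2% of mesothelial cells, whereas Cebpb and Klf4 stay above 97%.

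The Ebf1 and Ebf2 counts of mesothelial cells came from a minority of cells. The top 5% of thinned cells held 78.0% of Ebf1 UMIs in Tom+ and 67.5% in Tom- mesothelial cells, but 15.0% and 14.7% in stromal cells. For Ebf2 the top 5% held all 18 thinned UMIs in Tom+ and 99.3% in Tom- mesothelial cells, against 21.8% and 22.7% in stromal cells. Only 10 of 247 Tom+ and 91 of 1788 Tom- thinned mesothelial cells held Ebf2, while the top 5% was 13 and 90 cells. The Ebf2 share was therefore set by its rarity and shows nothing further. Cebpa, also rare there, gave 100% in both libraries. Ebf1 was held by 24 and 236 of these cells. Its mean there was 0.202 (Tom+) and 0.275 (Tom-) thinned UMIs, against 4.52 and 4.99 in stromal cells. A lower level by itself raises a top 5% share, and how much of the Ebf1 gap this makes up was not tested. Mesothelial cells without a UMI of the stromal marker Pdgfra (139 of 250 Tom+ and 1132 of 1887 Tom- cells, chosen after the data were seen) had lower levels, with Ebf1 at 9.30 and 13.7 CPM, Ebf2 at 2.32 and 2.83 CPM and Pparg at 1.16 CPM from 3 UMIs and 0.346 CPM from 6 UMIs. Their Cebpb was little changed at 1301 and 1627 CPM. These cells were also shallower, with medians of 15781 and 13657 UMIs, and the part that doublets or free RNA play in the mesothelial counts was not tested.

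Within the stroma, Pparg and Cebpa were higher and Klf4 and Ebf2 lower in cells rich in preadipocyte genes. Cells in the upper quartile for the preadipocyte genes Fabp4, Lpl, Cd36, Cfd, Car3 and Plin2 (at least 23 thinned UMIs) were set against cells in the upper quartile for the interstitial progenitor genes Dpp4, Pi16, Cd55, Sema3c, Anxa3 and Wnt2 (at least 7). Cells high in both were kept apart. These are ranges of a score and not cell types, and 495 Tom+ and 552 Tom- cells lay within 2 UMIs of the progenitor limit and 192 and 273 of the preadipocyte limit. Progenitor-high cells made up 23.8% of Tom+ (22.2 to 25.3) and 23.0% of Tom- thinned stromal cells (21.7 to 24.3), and preadipocyte-high cells 23.1% (21.6 to 24.6) and 23.2% (22.0 to 24.6). Of the preadipocyte genes, Fabp4, Lpl, Cd36, Cfd and Plin2 are also on the list of fat storage genes described below. In the textbook model Pparg and Cebpa drive such genes, so their levels in preadipocyte-high cells are not independent of the choice of cells.

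Preadipocyte-high cells held Pparg at 39.8 (Tom+) and 50.0 CPM (Tom-), against 7.52 and 5.05 CPM in progenitor-high cells. The log2 ratios were 2.40 (2.06 to 2.76) in Tom+ and 3.31 (2.94 to 3.70) in Tom-. Cebpa had log2 ratios of 1.37 (1.17 to 1.58) and 1.35 (1.17 to 1.53). These were the 2 factors at least 2-fold higher in each library, where 4.16% of 9879 genes were in Tom+ and 3.88% of 9644 in Tom-, and none was 2-fold lower, where 3.27% and 4.05% of genes were. Ebf2 went the other way, with -0.92 (-0.99 to -0.85) in Tom+ and -0.78 (-0.85 to -0.71) in Tom-, as did Klf4 with -0.80 (-0.82 to -0.77) and -0.49 (-0.51 to -0.47). Ebf1 was level, at -0.04 and -0.05. Zfp423 was at -0.45 (-0.75 to -0.15) in Tom+ and -0.31 (-0.64 to 0.02) in Tom-. Gata2 was at -0.76 (-1.38 to -0.15) and -0.48, from 39 and 56 UMIs in preadipocyte-high cells. Klf15 was at 0.95 (0.46 to 1.46) in Tom-, but its interval in Tom+ spanned 0 (0.09, -0.43 to 0.61). Cebpd was likewise level in Tom+ at 0.01 (-0.04 to 0.05) and higher in Tom- at 0.36 (0.32 to 0.40). Cebpb had opposite signs, with 0.15 (0.12 to 0.18) in Tom+ and -0.22 (-0.24 to -0.20) in Tom-. With immune-depleted cells only, Pparg was at 2.44 and 3.30.

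**Figure D4:**
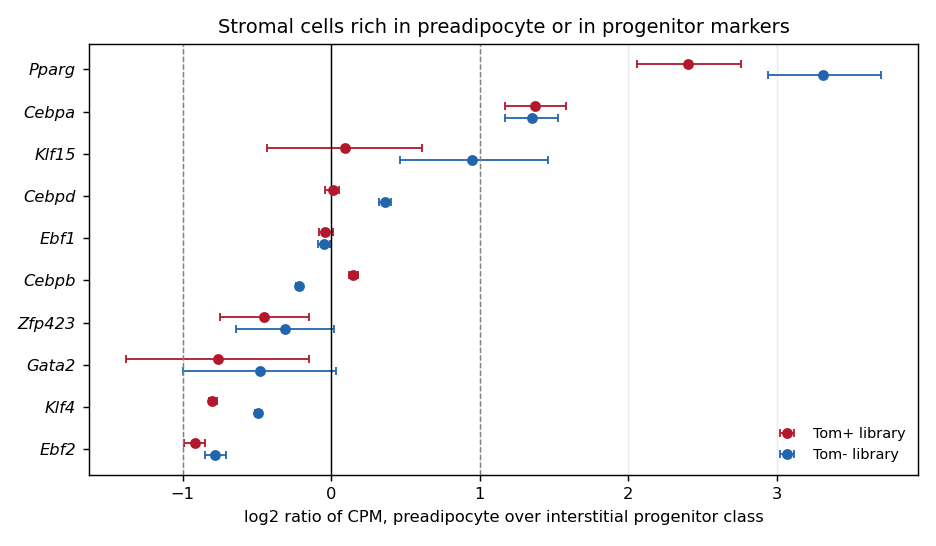
Log2 ratio of preadipocyte-high to progenitor-high stromal cells for each factor in each library, with 95% intervals for counting error and dashed lines at 2-fold. Pparg (2.40 in Tom+, 3.31 in Tom-) and Cebpa lie to the right, and Ebf2 and Klf4 to the left, in both libraries.

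Cebpb was lower in Tom+ in every one of these classes. The log2 ratio of Tom+ to Tom- was -1.08 (-1.11 to -1.05) in progenitor-high cells, at 1418 against 2994 CPM, and -0.71 (-0.74 to -0.68) in preadipocyte-high cells, at 1574 against 2575 CPM. It was -0.87 in cells high in neither list and also in those high in both. Unlike Cebpb, the other early factors differed more between the sorts in preadipocyte-high cells, Cebpd with -0.63 against -0.27 in progenitor-high cells and Klf4 with -0.47 against -0.16. Ebf2 was at 0.19 (0.13 to 0.26) in progenitor-high cells and 0.05 (-0.03 to 0.14) in preadipocyte-high cells. Zfp423 was higher in Tom+ in every class, from 0.40 (0.07 to 0.74) in preadipocyte-high cells to 0.68 in the cells high in both, where the interval spanned 0 (-0.92 to 2.43). Pparg split by class. It was higher in Tom+ progenitor-high cells at a log2 ratio of 0.57 (0.08 to 1.07), from 81 and 65 UMIs, and lower in Tom+ preadipocyte-high cells at -0.33 (-0.51 to -0.15), from 463 and 620 UMIs. In immune-depleted progenitor-high and preadipocyte-high cells, in that order, Pparg was at 0.58 and -0.29, Cebpb at -1.08 and -0.69, Cebpd at -0.27 and -0.59, Klf4 at -0.16 and -0.43, Ebf2 at 0.19 and 0.09, and Zfp423 at 0.54 and 0.44.

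Cebpb is inducible within minutes to hours in many cells, and genes of the early response also differed between the sorts. The 16 early response genes Fos, Fosb, Jun, Junb, Egr1, Egr2, Egr3, Ier2, Ier3, Atf3, Nr4a1, Nr4a2, Dusp1, Btg2, Zfp36 and Socs3 summed to 28985 CPM in Tom+ and 35039 CPM in Tom- stromal cells, with a median log2 ratio of -0.22. Of these, 4 of 16 were at least 1.5-fold lower in Tom+, namely Socs3 (-0.85), Nr4a2 (-0.84), Ier3 (-0.69) and Nr4a1 (-0.59), beside 3.24% of all genes. In immune-depleted cells 3 of 16 were, without Nr4a1, beside 2.68% of all genes. Cells of like early response were therefore compared. Stromal cells of both libraries were split together into quartiles of their summed thinned early response UMIs, at limits of 196, 251 and 314. The lowest quartile held 32.9% of Tom+ and 19.7% of Tom- cells and the highest 15.4% and 31.5%.

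Within every quartile Cebpb was lower in Tom+. The log2 ratio was -1.03 in the lowest quartile, at 1361 against 2772 CPM, then -0.87 and -0.80, and -0.61 (-0.64 to -0.58) in the highest, at 1861 against 2845 CPM. In immune-depleted cells it ran from -0.94 to -0.62. Klf4 was at -0.51 (-0.53 to -0.48) in the lowest quartile and -0.07 (-0.09 to -0.05) in the highest. Pparg was higher in Tom+ in the lowest quartile, at 15.5 against 11.0 CPM (0.49, 0.20 to 0.79), and lower in the highest, at 23.5 against 34.1 CPM (-0.54, -0.82 to -0.26). Cebpd lay between -0.41 and -0.19 in the 4 quartiles. Ebf2 was at -0.08 in the lowest and at 0.26, 0.30 and 0.34 in the others. Zfp423 was above 0 in all 4 quartiles, at 0.26, 0.45, 0.86 and 0.64, with an interval from -0.01 to 0.55 in the lowest. In immune-depleted cells the lowest quartile gave 0.44 (0.15 to 0.73) for Zfp423, 0.58 (0.27 to 0.89) for Pparg, -0.37 (-0.39 to -0.34) for Klf4 and 0.06 (-0.02 to 0.13) for Ebf2, and the highest gave 0.63, -0.53, -0.07 and 0.35. The lowest quartile also held the most immune cells, since the immune-depleted limits removed 14.5% of its Tom+ and 7.32% of its Tom- cells, and immunoglobulin RNA made up 14.8% and 6.49% of its UMIs.

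Reporter RNA within the Tom+ library gave a different picture before and after other cells were removed. Thinned Tom+ stromal cells held 0 (2389 cells), 1 to 4 (369) or at least 5 (234) tdTomato UMIs. Over all of them, 9 of the 10 factors were lower in cells with at least 5 than in cells with 0, among them Zfp423 at -1.29, Pparg at -0.93 and Cebpb at -0.28, and Gata2 was at 0.64. However, 91.9% of 9690 genes were lower too, with a median of -0.61, and immunoglobulin RNA made up 32.6% of the UMIs in the cells with at least 5, against 0.773% in those with 0. Without immune and mast cells, 155 cells with at least 5 and 2352 cells with 0 remained, and 2 factors were below 0, where 60.3% of genes were and the median was -0.07.

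In those immune-depleted cells Cebpb was higher with tdTomato RNA, at 2388 CPM (2323 to 2455) against 1684 CPM (1671 to 1698), a log2 ratio of 0.50 (0.46 to 0.54). It remained under the 3099 CPM of immune-depleted Tom- cells. Cebpa was at 55.7 against 40.1 CPM (0.47, 0.19 to 0.75) and Klf4 at 0.31 (0.28 to 0.35). Zfp423 was at 11.3 against 18.5 CPM (-0.71, -1.36 to -0.12), from 24 UMIs in the cells with at least 5, and Pparg at -0.25 (-0.77 to 0.23). Cells with at least 5 were shallower, with a median of 12735 against 14598 UMIs, and had a median of 281 against 232 early response UMIs. Ebf1, Ebf2, Cebpd and Klf15 lay between 0.01 and 0.09. Gata2 was at 0.30 in the cells with at least 5, where its interval spanned 0 (-0.73 to 1.18). Between cells with 1 to 4 and with 0 tdTomato UMIs, Cebpb was at 0.13 (0.10 to 0.17) and Gata2 at 0.88 (0.33 to 1.41). Cebpd was at -0.15 (-0.21 to -0.10) there, and the other factors lay between -0.25 and 0.16.

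**Figure D5:**
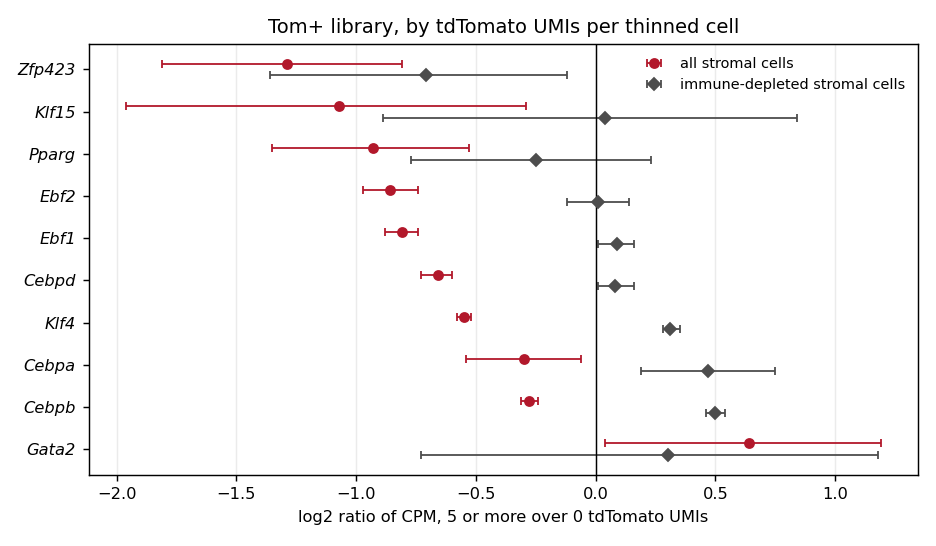
Log2 ratio of Tom+ stromal cells with at least 5 tdTomato UMIs to those with 0, for each factor, over all and over immune-depleted stromal cells, with 95% intervals for counting error. Cebpb moves from -0.28 over all stromal cells to 0.50 over immune-depleted ones.

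From cell to cell the factors hardly moved together. Over 2992 Tom+ and 4153 Tom- thinned stromal cells, none of the 45 pairs reached r = 0.3 in log-normalized values, and r ran from -0.10 to 0.17. Cells of a library share its depth and free RNA, and low counts alone hold such values near 0. Cebpb was most like the nuclear receptors Nr4a3 (r = 0.52 in Tom+, 0.55 in Tom-) and Nr4a1 (0.53 and 0.52) and the AP-1 gene Fosl2 (0.48 and 0.51), and 27 genes reached 0.3 in both libraries. Ebf2 was most like Nid1 (0.40 and 0.37), which encodes the basement membrane protein nidogen, Cd248 (0.34 and 0.34) and the chemokine receptor gene Ackr3 (0.33 and 0.32). Ebf1 was most like Gsn (0.36 and 0.37), which encodes the actin-severing protein gelsolin, Ccl11 (0.35 and 0.34) and S100a6 (0.37 and 0.33). Cebpd was most like Gsn (0.33 and 0.32) and Plpp3 (0.31 and 0.34), and Klf4 like Klf2 (0.44 and 0.31). No gene reached 0.3 with Pparg, Cebpa, Klf15, Zfp423 or Gata2. The gene nearest to Pparg was Fabp4, the fatty acid carrier of fat cells, at 0.19 and 0.24.

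Other genes of the pathway had medians near that of all genes, with single genes far apart between the sorts. Of 30 genes that fat cells use to store and release fat, 18 reached 5 CPM, and 2 were at least 1.5-fold higher in Tom+ and none lower (3.86% and 3.24% of all genes), with a median log2 ratio of 0.07. The 2 were Cd36, the fatty acid translocase, at 36.7 against 10.4 CPM (1.82, 1.69 to 1.96), and the lipid droplet gene Plin4 at 16.7 against 4.35 CPM (1.94, 1.73 to 2.15), the latter named after its value was seen. Cd36 is also made by immune cells and was at 26.6 and 9.45 CPM in immune-depleted cells, where Plin4 was at 18.3 and 4.55. There 3 genes of the list passed 1.5-fold (5.58% of all genes did), since Angptl4, an inhibitor of lipoprotein lipase, was at 305 against 201 CPM (0.60, 0.56 to 0.64). Among the genes of the list under 5 CPM some were almost absent from Tom+, and these were named after their values were seen. Cfd, the secreted adipsin of fat cells, had 7 UMIs in Tom+ against 456 in Tom- (-5.85, -7.17 to -4.79), the lipid droplet gene Cidec 10 against 136 (-3.59, -4.68 to -2.66), Adipoq, which encodes adiponectin, 21 against 93 (-1.97, -2.73 to -1.27) and Pck1 0 against 57. In immune-depleted cells Cfd was at -6.95, Cidec at -3.98 and Adipoq at -1.84. Retn was also lower, with 7 UMIs against 25 (-1.66, -3.11 to -0.41). Other low genes of the list went the other way. Plin1 had 160 UMIs in Tom+ against 66 in Tom- (1.46, 1.03 to 1.89) and Gpd1 73 against 53 (0.64, 0.11 to 1.18). In immune-depleted cells Plin1 was at 1.65 (1.21 to 2.09) and Gpd1 at 0.81 (0.26 to 1.37). Of 49 other regulators of fat cell formation, 41 reached 5 CPM, and Ppargc1a, the coactivator PGC-1α, was the only one past 1.5-fold, at 60.7 against 25.9 CPM (1.23, 1.14 to 1.32). It was at 67.5 and 26.7 CPM in immune-depleted cells. Of the 6 preadipocyte genes, 5 reached 5 CPM, and besides Cd36 as higher, 1 was lower, Car3, a carbonic anhydrase of fat cells, at 8.67 against 15.9 CPM (-0.88, -1.04 to -0.71). Of the 6 progenitor genes, 5 reached 5 CPM and 1 was lower, Pi16 at 139 against 237 CPM (-0.77, -0.81 to -0.72). The markers of mature fat cells Adipoq, Plin1, Cidec, Lep and Retn summed to 3.87 CPM in Tom+ and 5.61 CPM in Tom- stromal cells, so mature fat cells gave almost no counts.

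In mesothelial against stromal cells the same lists were mixed. Of the fat storage genes, 5 of 17 in Tom- and 5 of 18 in Tom+ were at least 2-fold lower, and 4 were at least 2-fold higher in each library. Of the other regulators, 9 were lower and 4 higher in each, of 41 and 42 that reached 5 CPM. Over all genes, 9.23% were at least 2-fold lower and 11.9% higher in Tom-, and 10.1% and 13.1% in Tom+.

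The genes lie on GRCm38 as follows, all protein-coding. Cebpa lies at chr7:35119293-35121928, Cebpb at chr2:167688915-167690418, Cebpd at chr16:15887286-15891031, Ebf1 at chr11:44617317-45008091 and Ebf2 at chr14:67233292-67430918, all on the plus strand. On the plus strand of chromosome 6 lie Gata2 (chr6:88193891-88207032), Klf15 (chr6:90462576-90475238) and Pparg (chr6:115360951-115490399). Klf4 (chr4:55527143-55532466) and Zfp423 (chr8:87661810-87959595) lie on the minus strand.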

How the data were processed

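Single-cell RNA was measured in 2 libraries, Tom+ and Tom-, made with a 10x Genomics 3′ kit. The authors deposited raw UMI counts per gene and barcode from Cell Ranger 3.0.2, aligned to mm10 (GRCm38). From these counts, cells with 1001 to 6999 genes and under 8% mitochondrial UMIs were kept. No doublet caller was run. UMIs were summed per library and class and given as CPM (counts per 1000000 UMIs) with exact Poisson intervals. Log2 ratios had exact conditional intervals and shares had Clopper-Pearson intervals, all at 95%. All cover counting error only. Thinning took each cell down to 7563 UMIs (10th percentile of stromal and mesothelial cells, seed 0). The comparisons of Tom+ with Tom- and of mesothelial with stromal cells had no test, and folds of 1.5 and 2 over genes averaging 5 CPM or more were rules of size. Named were all 10 factors, up to 4 genes per list and direction (mean of at least 20 CPM) and up to 3 like genes per factor. The members and lists were chosen with earlier results of these data known. The mast cell list and the immune-depleted limits were added after the data were seen. The log2 ratios with their intervals and the thinning were tested on simulated counts that held counting error only. The cell classes, correlations and motif counts were not tested in this way. Alternatives are given in the closing section. Software was scipy 1.17.1, pandas 2.3.3, numpy 2.4.6 and matplotlib 3.10.9 under Python 3.11.15.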

Additional observations from a re-analysis of the deposited data

Results flagged for a closer look

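Several differences between the sorts had opposite signs in 2 groups of cells, and these differences were not tested. Ebf2 had a log2 ratio of Tom+ to Tom- of 0.19 (0.15 to 0.23) in stromal and -0.47 (-0.92 to -0.05) in mesothelial cells. In mesothelial cells without a Pdgfra UMI, Ebf2 had 2.32 CPM (0.853 to 5.06, Tom+) against 2.83 CPM (2.09 to 3.74, Tom-), so the sign was not beyond counting error there. Pparg was at 0.57 (0.08 to 1.07) in progenitor-high and -0.33 (-0.51 to -0.15) in preadipocyte-high cells. Between the lowest and the highest early response quartile, Pparg changed from 0.49 (0.20 to 0.79) to -0.54 (-0.82 to -0.26), Ebf2 from -0.08 (-0.16 to -0.01) to 0.34 (0.25 to 0.44) and Gata2 from -0.90 (-1.41 to -0.40) to 0.75 (0.14 to 1.35). In immune-depleted cells Ebf2 was at 0.06 (-0.02 to 0.13) in the lowest quartile, and Gata2 at 0.55 (-0.11 to 1.20) in the highest, so neither pair was opposite beyond counting error there. The log2 ratio of Cebpb in preadipocyte-high to progenitor-high cells was 0.15 (0.12 to 0.18) in Tom+ and -0.22 (-0.24 to -0.20) in Tom-.

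The cells with 5 to 9 mesothelial marker UMIs belonged to neither class and entered no comparison. In the 11 such Tom+ cells, 4 factors had more than 3 UMIs, namely Klf4 with 106, Cebpb with 76, Cebpd with 18 and Ebf1 with 14. In the 30 such Tom- cells, 5 factors did, namely Klf4 with 445, Cebpb with 350, Cebpd with 81, Ebf1 with 15 and Ebf2 with 12.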

How the results depend on the processing

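A count was held unchanged within 1.5-fold of its main value, and the median log2 ratio within the median counting limits of the factors. Over 44 summary values under the alternatives, 38 stayed within these limits and 6 moved. All 6 were the number of factors at least 1.5-fold higher in Tom+ stromal cells, which was 1 (Zfp423) instead of 0 with the mean of per-cell CPM, with thinned cells, with at least 10 fibroblast UMIs, without immune or Calca and Ncam1 cells, without shared barcodes, and in immune-depleted cells. The last was chosen after the data were seen. Of 270 values of single factors, 183 stayed within their counting interval and 87 moved. No ratio that was past its fold limit in the main setting changed sign. The Tom+ to Tom- log2 ratio of Cebpb ranged from -0.95 to -0.77 and that of Zfp423 from 0.47 to 0.70. Gata2 changed sign in stroma and in mesothelial over stromal cells of both libraries, Klf15 between the sorts in stroma, and Cebpa, Klf4, Pparg and Zfp423 between the sorts in mesothelial cells. There Pparg ran from -0.38 to 1.75 and Cebpa from -0.29 to 0.66, and both passed 1.5-fold higher without cells that held a Pdgfra UMI. Without shared barcodes, Ebf2 in Tom+ mesothelial over stromal cells was at -6.26 instead of -4.51. With size factors, Cebpb became the seventh factor at least 2-fold lower in Tom- mesothelial cells, at -1.01. Without a filter on low genes, 14.3% of 21314 genes were 1.5-fold lower and 17.8% higher. This setting alters only which genes are counted, so the factors' values could not move under it, though they count among those that stayed. No mesothelial cell had under 10 fibroblast UMIs, so that alternative gave no value. No paired analysis was possible because each group was 1 library. With 1 library per sort, differences between mice, sorts and library preparation cannot be told apart from those between Tom+ and Tom- cells.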
